A study of Mus musculus with 8 samples.

Results

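The mitosis genes are 44 genes that work in cell division, from the cyclins and kinases that start mitosis to the motors and anchors that part the chromosomes and the cell. Their probes were found by name, as every non-control probe of the arrays that carries a member's symbol or an older one, which gave 72 probes of 44 genes among 41174 probes of 27670 named genes. All 44 passed the filter on dim probes and stood among the 17996 genes tested. Where a gene had several probes, the one with the highest mean stood for it (21 genes had a single probe), and a level is the log2 signal of that probe minus the 75th percentile of its array.

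Sorted mouse CD4 T cells were profiled in 4 groups of 2 arrays: regulatory T cells (Treg), CD44hi cells, CD44lo cells and naive cells. All were sorted from spleens and lymph nodes, pooled, of C57BL/6 males aged 15 weeks. The series title names the alleles Ox40-cre and ROSA-YFP. In such mice Cre is driven from Ox40 (Tnfrsf4), a costimulatory receptor of activated T cells, and leaves a lasting YFP mark in cells that have expressed it. The labels give neither the sort markers nor the YFP status of a group, and they do not say whether the arrays numbered 1 and 2 are separate animals. RNA was amplified from a small input and labelled with Cy3.

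The levels of the genes that name the groups ran with the labels. Foxp3, which specifies regulatory T cells, stood at 2.77 and 2.68 on the Treg arrays, -0.24 and -0.10 on the CD44hi arrays, 0.35 and 0.84 on the CD44lo arrays and -5.41 and -4.68 on the naive arrays. Cd44, the hyaluronan receptor that rises on activated and memory T cells, stood at 3.53 and 3.38 in Treg, 4.50 and 4.39 in CD44hi, 2.82 and 3.06 in CD44lo and 2.13 and 2.51 in naive. All 9 markers of T cells were well above background on every array. Naive array 2 was the dimmest, with 639.3 as its 75th percentile of signal, against 990.7 for naive array 1 and 1044.6 to 1336.8 for the remaining arrays. The arrays lay on 2 slides, per the file headers, each with 1 array of every group, so every difference could also be read within a slide.

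A cell enters mitosis when Cdk1, bound to cyclins A and B, phosphorylates its targets. The spindle then captures the chromosomes at their kinetochores, a checkpoint holds the cell until all are attached, and the anaphase-promoting complex (APC/C) has securin and cyclin B destroyed so that separase can cut the sister chromatids apart. Most of these genes are transcribed only late in the cycle. Naive T cells rest outside the cycle, while memory-phenotype and regulatory CD4 T cells are known to hold a dividing fraction in the unchallenged mouse. In bulk samples, fewer dividing cells and less RNA per dividing cell cannot be told apart.

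Genes of this kind are known to share promoter elements, the cell cycle genes homology region, read by the DREAM and B-MYB/FOXM1 complexes, and CCAAT boxes bound by NF-Y. RefSeq windows of GRCm38.p6, from 250 bases before to 50 after a start, were found for 38 of the 44 genes (40 windows). The letters TTTGAA, or TTCAAA on the other strand, were in 72.5% of these windows, against 17.9% of all 32851 windows. CCAAT or ATTGG was in 75% of them, against 37.4% of all windows. Windows with both made up 65.0% of those of the mitosis genes and 6.95% of all, and 20.8% of 144 windows of other listed cell cycle genes. Matches were counted wherever they lay and may overlap, and a match is no test of binding. The stretch of 120 bases that ends at the start is shown for 5 genes that hold both motifs in it. They were taken in order of the number of comparisons in which they were called. Capitals mark the 2 motifs.
Espl1 (chr15:102296173-102296292, plus strand): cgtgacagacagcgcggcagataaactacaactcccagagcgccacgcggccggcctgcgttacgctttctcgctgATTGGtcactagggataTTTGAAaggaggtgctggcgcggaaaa
Cdk1 (chr10:69352913-69353032, minus strand): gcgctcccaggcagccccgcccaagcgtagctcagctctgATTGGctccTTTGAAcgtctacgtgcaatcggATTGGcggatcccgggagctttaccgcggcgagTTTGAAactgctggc
Kif11 (chr19:37376262-37376381, plus strand): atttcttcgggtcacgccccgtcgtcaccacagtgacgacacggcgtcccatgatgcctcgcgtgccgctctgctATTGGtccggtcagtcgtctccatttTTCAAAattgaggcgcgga
Ube2c (chr2:164769809-164769928, plus strand): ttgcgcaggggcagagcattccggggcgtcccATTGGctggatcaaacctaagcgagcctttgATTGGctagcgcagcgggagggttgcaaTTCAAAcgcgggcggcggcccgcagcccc
Top2a (chr11:99024190-99024309, minus strand): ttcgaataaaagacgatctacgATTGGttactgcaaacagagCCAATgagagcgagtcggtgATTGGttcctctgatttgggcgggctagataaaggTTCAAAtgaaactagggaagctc
In each of the 5, a CCAAT box lies upstream of the TTTGAA element nearest to the start. That element begins 27 bases before the start in Espl1, 15 in Cdk1, 19 in Kif11, 29 in Ube2c and 23 in Top2a. An element before the start was a condition of the choice, so the 5 do not stand for all members. In other members, among them Aurka, Bub1b and Plk1, the element nearest to the start begins after it. In Cdc20, Kif22 and Prc1 it begins before the start.

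**Figure D1:**
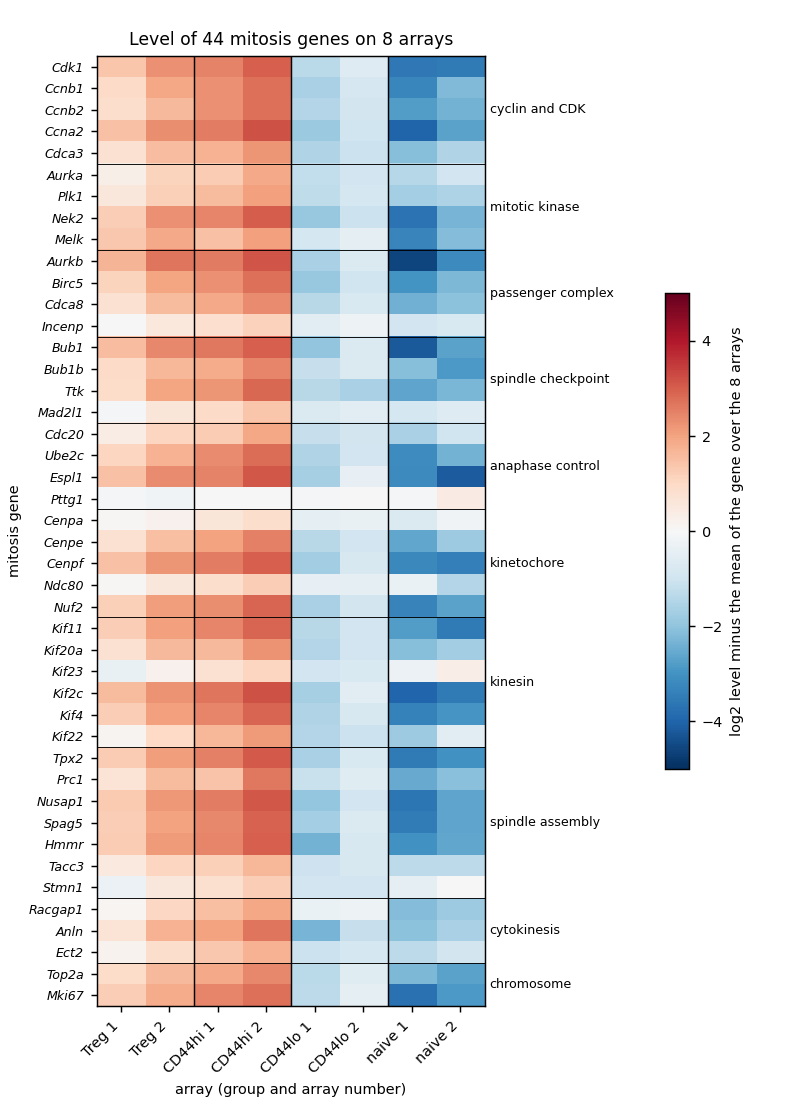
The 44 mitosis genes by role (rows) on the 8 arrays (columns), coloured by the log2 level minus the mean of that gene over the arrays. Treg and CD44hi arrays are red for nearly every gene, and naive arrays are blue. Pttg1, Kif23, Stmn1, Cenpa, Incenp, Mad2l1 and Ndc80 are among the palest.

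Mitosis genes were higher in CD44hi and in Treg than in naive cells. Of the 44, 39 rose in Treg against naive and 42 in CD44hi against naive, and none fell, at an adjusted p under 0.05 in limma. Over all 17996 genes tested, 11.6% were called higher and 10.3% lower in Treg against naive, and 13.2% higher and 14.5% lower in CD44hi against naive. The median log2 difference of the 44 genes was 3.83 for Treg minus naive, against -0.20 over all tested genes, and 4.64 for CD44hi minus naive, against -0.15. Within slide 1 and slide 2 the medians were 3.22 and 4.26 for Treg minus naive and 4.48 and 5.26 for CD44hi minus naive. Both comparisons share the naive arrays. Without naive array 2, the dimmest array, 38 genes were called in Treg against naive and 43 in CD44hi against naive. With normexp background correction the medians were 2.61 for Treg minus naive and 3.35 for CD44hi minus naive, so the folds over naive depend on how background is treated.

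**Figure D2:**
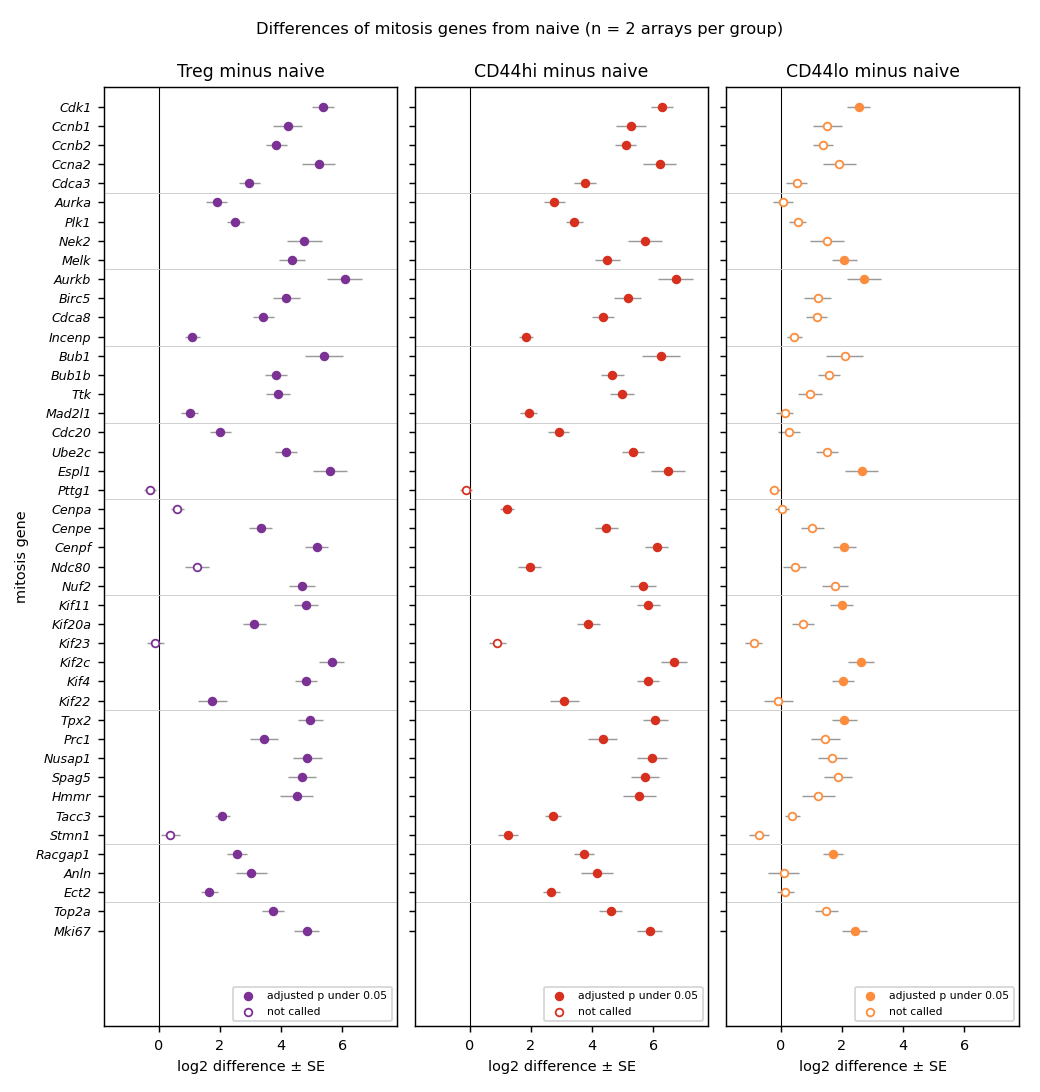
Log2 differences of the 44 mitosis genes from naive cells, with the standard error of the fit, in Treg, CD44hi and CD44lo (2 arrays per group). Filled points had an adjusted p under 0.05: 39 genes in Treg, 42 in CD44hi and 11 in CD44lo.

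The cyclins and their kinase were all called in both groups. Cdk1, the kinase that drives entry into mitosis, had log2 levels of -1.31 and -0.41 on the Treg arrays, -0.19 and 0.30 on the CD44hi arrays, -4.03 and -3.32 on the CD44lo arrays and -6.25 and -6.21 on the naive arrays. The groups did not overlap, and on the naive arrays Cdk1 was not well above background, so its excess is a bound: at least 36.0-fold in Treg (adjusted p = 0.00017) and at least 68.0-fold in CD44hi (adjusted p = 8.8e-05). Such bounds set the mean of the brighter group against the lowest signal that counted as well above background on the dim arrays. The probe's own signal was used where that was higher. A dimmer second probe of Cdk1, well above background on 5 arrays, did not show this excess. It differed from naive by -0.27 in Treg, 0.14 in CD44hi and -0.87 in CD44lo. Ccnb1, cyclin B1, which activates Cdk1, stood at -1.19 and -0.22 in Treg, 0.12 and 0.60 in CD44hi, -3.77 and -3.02 in CD44lo and -5.44 and -4.39 in naive. Its differences were 4.21 ± 0.48 for Treg minus naive (18.5-fold) and 5.27 ± 0.48 for CD44hi minus naive (38.7-fold). Cyclin A2 (Ccna2), which acts from S phase into mitosis, differed by 5.23 ± 0.54 for Treg and 6.21 ± 0.54 for CD44hi, and cyclin B2 (Ccnb2) by 3.84 ± 0.34 in Treg and 5.10 ± 0.34 in CD44hi. The smallest difference in this class was that of Cdca3, a factor in the destruction of the Cdk1 inhibitor Wee1. It stood at 0.56 and 1.36 in Treg, 1.53 and 2.01 in CD44hi, -1.69 and -1.28 in CD44lo and -2.30 and -1.70 in naive, a gap of 2.96 ± 0.35 for Treg minus naive and 3.77 ± 0.35 for CD44hi minus naive.

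Among the mitotic kinases, Nek2, which splits the centrosomes, moved most. Its levels were -1.45 and -0.39 in Treg, -0.25 and 0.36 in CD44hi, -4.58 and -3.74 in CD44lo and -6.35 and -5.02 in naive, where 1 array measured it above background. That is a difference of 4.76 ± 0.56 for Treg minus naive and 5.74 ± 0.56 for CD44hi minus naive. Aurka, the Aurora kinase of spindle poles, moved least. Its levels were 1.05 and 1.86 in Treg, 2.01 and 2.64 in CD44hi, -0.50 and -0.22 in CD44lo and -0.66 and -0.20 in naive, so CD44lo and naive overlapped. The difference from naive was 1.89 ± 0.34 in Treg and 2.76 ± 0.34 in CD44hi. Plk1, the Polo kinase, differed by 2.49 ± 0.28 in Treg and 3.42 ± 0.28 in CD44hi, and Melk, a kinase of dividing cells, by 4.36 ± 0.42 in Treg and 4.50 ± 0.42 in CD44hi.

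The chromosomal passenger complex, whose kinase Aurkb corrects faulty attachments of chromosomes to the spindle, had all 4 genes called in both groups. Aurkb stood at -1.78 and -0.78 in Treg, -0.89 and -0.34 in CD44hi, -5.08 and -4.20 in CD44lo and -8.08 and -6.64 in naive. It was not well above background on the naive arrays, which gives at least 27-fold in Treg and at least 42.6-fold in CD44hi over naive. Birc5 (survivin), which brings Aurkb to the centromere, stood at 2.67 and 3.54 in Treg, 3.87 and 4.32 in CD44hi, -0.31 and 0.57 in CD44lo and -1.44 and -0.69 in naive. All groups were separate for Birc5, and the difference was 4.17 ± 0.44 for Treg minus naive (18-fold) and 5.16 ± 0.44 for CD44hi minus naive (35.9-fold). Cdca8 (borealin) differed by 3.41 ± 0.35 in Treg and 4.36 ± 0.35 in CD44hi. Incenp, the scaffold of the complex, had the smallest difference: it stood at 3.67 and 4.20 in Treg, 4.52 and 4.85 in CD44hi, 3.14 and 3.44 in CD44lo and 2.75 and 2.94 in naive, with differences of 1.09 ± 0.24 in Treg and 1.84 ± 0.24 in CD44hi. Its call in Treg was lost without Treg array 2 or naive array 2.

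All 4 genes of the spindle checkpoint, which holds anaphase back, were called in both groups. Bub1, its kinase at the kinetochore, stood at -2.06 and -1.22 in Treg, -0.98 and -0.61 in CD44hi, -5.58 and -4.33 in CD44lo and -7.81 and -6.28 in naive. It was below the limit of background in naive, which puts it at least 21.0-fold higher in Treg and at least 37.7-fold higher in CD44hi. Ttk (Mps1), the kinase that recruits Bub1, was not well above background in CD44lo or naive cells and lay at least 3.02-fold higher in Treg and at least 6.43-fold higher in CD44hi than in naive. Bub1b (BubR1) differed from naive by 3.83 ± 0.37 in Treg and 4.66 ± 0.37 in CD44hi. Mad2l1 (Mad2), which binds and holds Cdc20, moved least: it stood at -0.47 and 0.23 in Treg, 0.58 and 1.03 in CD44hi, -1.10 and -0.91 in CD44lo and -1.25 and -1.0 in naive. Its difference was 1.01 ± 0.28 for Treg minus naive (adjusted p = 0.0442) and 1.93 ± 0.28 for CD44hi minus naive (adjusted p = 0.00318). The call of Mad2l1 in Treg was lost when any 1 of 7 of the 8 arrays was left out.

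Of the 4 genes of anaphase control, 3 were called in both groups. Espl1, separase, the protease that cuts cohesin, stood at -1.18 and -0.29 in Treg, -0.17 and 0.46 in CD44hi, -4.32 and -3.08 in CD44lo and -5.84 and -6.83 in naive, where it was not well above background. It was at least 34.2-fold higher in Treg and at least 62.8-fold higher in CD44hi than in naive. Pttg1, securin, the inhibitor that separase is bound to until anaphase, stood at 3.82 and 3.72 in Treg, 3.93 and 3.93 in CD44hi, 3.79 and 3.90 in CD44lo and 3.81 and 4.30 in naive. These ranges overlap, and its differences were -0.29 ± 0.19 for Treg minus naive (adjusted p = 0.299) and -0.13 ± 0.19 for CD44hi minus naive (adjusted p = 0.654). Ube2c, the E2 enzyme of the APC/C, differed by 4.15 ± 0.36 in Treg and 5.33 ± 0.36 in CD44hi, and Cdc20, its activator, by 2.01 ± 0.35 in Treg and 2.90 ± 0.35 in CD44hi.

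Of the 5 kinetochore genes, 3 were called in Treg and all 5 in CD44hi. Cenpf, a large protein of the outer kinetochore, stood at -0.13 and 0.61 in Treg, 0.97 and 1.42 in CD44hi, -3.33 and -2.37 in CD44lo and -4.82 and -5.01 in naive. It was 35.7-fold higher in Treg and 69.0-fold higher in CD44hi than in naive. Nuf2, of the Ndc80 complex that grips microtubules, differed by 4.68 ± 0.42 in Treg and 5.66 ± 0.42 in CD44hi, and the motor Cenpe by 3.33 ± 0.37 in Treg and 4.46 ± 0.37 in CD44hi. Ndc80 itself differed less, by 1.24 ± 0.38 in Treg (adjusted p = 0.0599) and 1.96 ± 0.38 in CD44hi (adjusted p = 0.0106). Cenpa, the histone that marks the centromere, stood at 0.74 and 0.89 in Treg, 1.29 and 1.56 in CD44hi, 0.19 and 0.32 in CD44lo and -0.06 and 0.49 in naive. Its differences were 0.60 ± 0.22 in Treg (adjusted p = 0.0964) and 1.21 ± 0.22 in CD44hi (adjusted p = 0.00829). A second Cenpa probe gave the same sign against naive and the opposite sign in the 3 comparisons without naive cells.

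Of the 6 kinesins, 5 were called in Treg and 5 in CD44hi. Kif2c, which takes microtubules apart at the centromere, stood at -2.79 and -2.10 in Treg, -1.68 and -1.16 in CD44hi, -6.02 and -4.93 in CD44lo and -8.31 and -7.88 in naive, below the background limit in naive, for at least 12-fold in Treg and at least 24.4-fold in CD44hi. Kif11 (Eg5), which pushes the spindle poles apart, was at least 16.8-fold higher in Treg and at least 34.3-fold higher in CD44hi. Kif4, a chromosome arm motor, differed by 4.80 ± 0.36 in Treg and 5.84 ± 0.36 in CD44hi, Kif20a, of the midzone, by 3.12 ± 0.37 in Treg and 3.88 ± 0.37 in CD44hi, and Kif22 (Kid) by 1.75 ± 0.47 in Treg and 3.09 ± 0.47 in CD44hi. The call of Kif22 in Treg was lost when any 1 of 7 of the 8 arrays was left out. Kif23, the midzone motor of centralspindlin, was not called in either group. It stood at -0.53 and 0.05 in Treg, 0.62 and 0.92 in CD44hi, -1.11 and -0.91 in CD44lo and -0.44 and 0.19 in naive. Treg and naive overlapped for Kif23, and its differences of -0.12 ± 0.28 in Treg (adjusted p = 0.779) and 0.90 ± 0.28 in CD44hi (adjusted p = 0.0582) missed the threshold. Its second probe gave -0.20 in Treg and 0.70 in CD44hi.

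In the class of spindle assembly, 6 of 7 were called in Treg and all 7 in CD44hi. Tpx2, which activates Aurora A and seeds microtubules, stood at -0.87 and -0.04 in Treg, 0.38 and 0.92 in CD44hi, -3.77 and -2.89 in CD44lo and -5.66 and -5.16 in naive, a difference of 4.95 ± 0.41 in Treg and 6.06 ± 0.41 in CD44hi. Nusap1, which bundles spindle fibres, differed by 4.85 ± 0.48 in Treg and 5.96 ± 0.48 in CD44hi, and Spag5 (astrin), which helps anchor them, by 4.68 ± 0.45 in Treg and 5.73 ± 0.45 in CD44hi. Hmmr, a spindle pole protein, was not well above background in naive and lay at least 5.31-fold higher in Treg and at least 10.8-fold in CD44hi. Prc1, the bundler of the midzone, differed by 3.44 ± 0.47 in Treg and 4.35 ± 0.47 in CD44hi, and Tacc3, of the fibres between spindle microtubules, by 2.07 ± 0.25 in Treg and 2.72 ± 0.25 in CD44hi. Stmn1 (stathmin), which sequesters tubulin in many cells, had the smallest difference. It stood at 3.82 and 4.66 in Treg, 4.90 and 5.34 in CD44hi, 3.15 and 3.14 in CD44lo and 3.62 and 4.12 in naive, a difference of 0.37 ± 0.32 in Treg (adjusted p = 0.415) and 1.25 ± 0.32 in CD44hi (adjusted p = 0.0301). Its call in CD44hi was lost when any 1 of 5 arrays (either CD44hi, either CD44lo or naive array 1) was left out.

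The 3 genes of cytokinesis were called in both groups. Anln, which links actin and septins in the furrow, stood at -5.38 and -4.31 in Treg, -4.05 and -3.36 in CD44hi, -8.36 and -7.19 in CD44lo and -8.08 and -7.65 in naive. Neither CD44lo nor naive cells had it well above background, and it was at least 2.27-fold higher in Treg and at least 5.02-fold higher in CD44hi than in naive. Ect2, the exchange factor that switches on RhoA at the cleavage site, stood at -0.97 and -0.29 in Treg, 0.20 and 0.58 in CD44hi, -2.23 and -2.02 in CD44lo and -2.48 and -2.07 in naive. It differed from naive by 1.64 ± 0.28 in Treg and 2.66 ± 0.28 in CD44hi. Racgap1, the partner of Kif23 in centralspindlin, differed by 2.56 ± 0.33 in Treg and 3.72 ± 0.33 in CD44hi.

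The most used marker of dividing cells, Mki67, which coats mitotic chromosomes, stood at 2.98 and 3.61 in Treg, 4.17 and 4.51 in CD44hi, 0.44 and 1.31 in CD44lo and -1.97 and -1.11 in naive. All 4 groups were separate, and Mki67 was 28.6-fold higher in Treg (adjusted p = 0.0004) and 59.0-fold higher in CD44hi (adjusted p = 0.00016) than in naive. Top2a, the topoisomerase that untangles sister chromatids, stood at 0.08 and 0.80 in Treg, 1.05 and 1.58 in CD44hi, -2.19 and -1.44 in CD44lo and -3.08 and -3.51 in naive. Its excess over naive was 13.3-fold in Treg and 24.5-fold in CD44hi.

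The CD44lo group stood between these and naive cells. In CD44lo against naive, 11 of the 44 genes rose and none fell, against 4.53% of all tested genes called higher and 0.761% called lower. They were Cdk1, Melk, Aurkb, Espl1, Cenpf, Kif11, Kif2c, Kif4, Tpx2, Racgap1 and Mki67. The spindle checkpoint genes missed the threshold. Bub1 was at least 2.11-fold higher (adjusted p = 0.135), Bub1b differed by 1.57 ± 0.37 (adjusted p = 0.0693) and Mad2l1 by 0.12 ± 0.28 (adjusted p = 0.803). Ttk was not well above background in either group. Mki67 was 5.33-fold higher (2.41 ± 0.41, adjusted p = 0.0196) and Cdk1 at least 5.13-fold higher (adjusted p = 0.00945). The median of the 44 was 1.42, against -0.13 over all tested genes, and 1.39 and 1.23 within the slides. In 33 genes both CD44lo arrays lay above both naive arrays, which held for 18.6% of all tested genes. Kif23 and Stmn1 had lower means in CD44lo than in naive, by -0.89 ± 0.28 (adjusted p = 0.169) and -0.72 ± 0.32 (adjusted p = 0.272). These calls rest on few arrays: 0 genes were called without CD44lo array 2, 2 without naive array 2 and 7 without CD44lo array 1, where 2.81%, 4.35% and 3.95% of all tested genes were called in either direction. With normexp background correction 1 gene was called, against 3.66% of all tested genes, and the median was 0.52.

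Against CD44lo, 34 genes rose in Treg and 42 in CD44hi, and none fell. Of all tested genes, 3.7% were called higher and 1.87% lower in Treg against CD44lo, and 6.06% higher and 3.31% lower in CD44hi against CD44lo. The medians of the 44 were 2.43 for Treg minus CD44lo and 3.45 for CD44hi minus CD44lo, against -0.07 and -0.04 over all tested genes, and within the slides 1.8 and 3.09 for Treg and 2.88 and 4.00 for CD44hi. Both CD44hi arrays lay above both CD44lo arrays in all 44 genes, against 30.2% of all tested genes. Ccna2 differed by 4.30 ± 0.54 for CD44hi minus CD44lo. Kif23, not called against naive, was called here at 1.78 ± 0.28 (adjusted p = 0.0127), and Ndc80 (1.51 ± 0.38, adjusted p = 0.0582) and Pttg1 (0.09 ± 0.19, adjusted p = 0.842) were not. The call of Kif23 was lost without CD44hi array 2 or either CD44lo array. Those not called in Treg against CD44lo were Incenp, Mad2l1, Pttg1, Cenpa, Ndc80, Kif23, Kif22, Prc1, Stmn1 and Racgap1. One gene was called in Treg against CD44lo without Treg array 2, against 1.29% of all tested genes, and 1 without CD44lo array 1, against 1.04%.

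**Figure D3:**
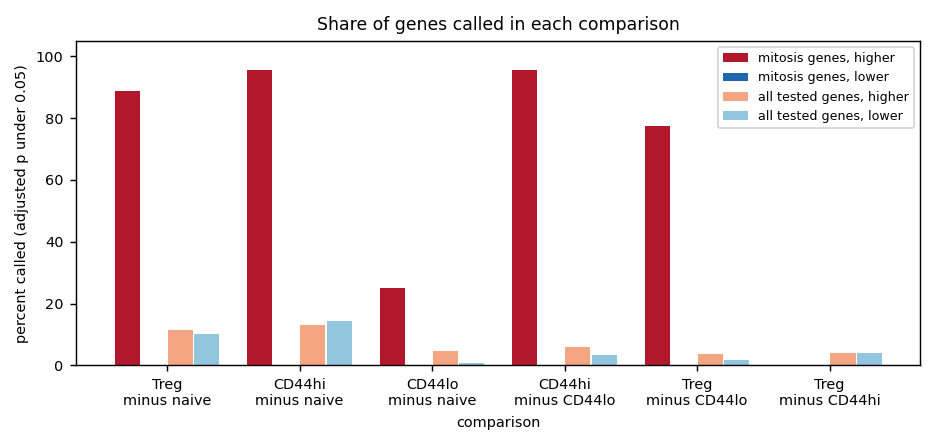
Percent of the 44 mitosis genes (dark bars) and of the 17996 tested genes (pale bars) called higher or lower in each comparison. Mitosis genes were called higher in up to 42 of 44 and lower in none, so their dark bars for lower have no height, and both are at 0 in Treg minus CD44hi.

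Treg and CD44hi cells were then set against each other. None of the 44 genes was called in either direction, against 4.04% of all tested genes called lower and 4.15% called higher. At an unadjusted p under 0.05 there were 25 genes, against 21.0% of all tested genes. Nearly all were lost without Treg array 1 or CD44hi array 2, and the count rose without Treg array 2 or CD44hi array 1. All 44 lay below 0 in Treg minus CD44hi on slide 1 and on slide 2, against 45.8% and 58.2% of all tested genes, and in 41 of the 44 both Treg arrays lay below both CD44hi arrays, against 32.1% of all. The median difference was -0.97, against -0.04 over all tested genes, and -1.12 and -0.83 within the slides. It was -0.56 without Treg array 1 and -1.36 without Treg array 2, and -1.21 without CD44hi array 1 and -0.69 without CD44hi array 2. Differences ran from -1.34 ± 0.47 in Kif22 to -0.14 ± 0.42 in Melk. The lowest adjusted p was 0.0771, for Ccnb2, at -1.26 ± 0.34. With the array number as a block 27 were called lower, where 10.6% of all tested genes were called in either direction. The labels do not say that this number pairs the arrays. Normexp background correction called 5 of the genes lower, where 8.48% of all tested genes were called in either direction.

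**Figure D4:**
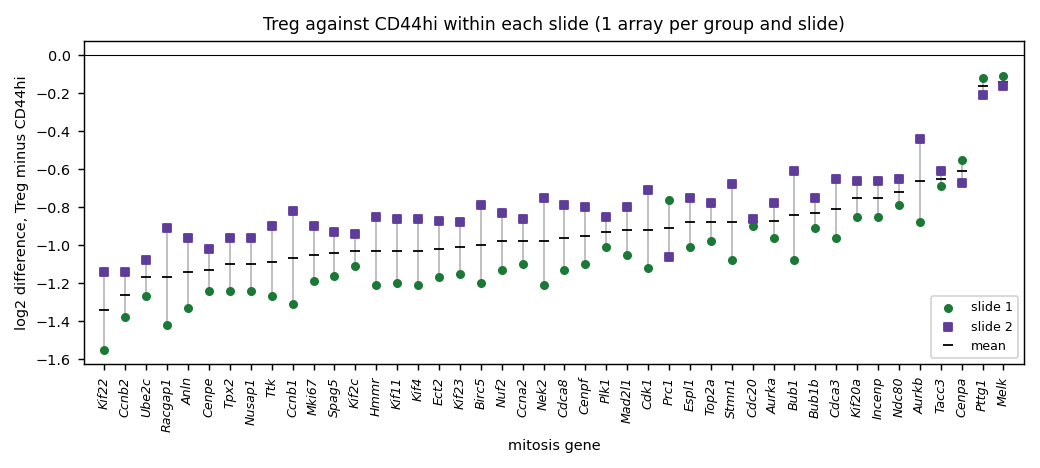
Log2 difference of Treg minus CD44hi for each mitosis gene within slide 1 (circles) and slide 2 (squares), with 1 array per group and slide and dashes for the mean. All points lie below 0, and most pairs lie between -0.6 and -1.6, with Pttg1 and Melk nearest to 0.

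The group means fell in the order CD44hi, Treg, CD44lo, naive in 40 of the 44 genes, an order shown by 8.7% of all tested genes. Pttg1, Kif23, Kif22 and Stmn1 were the exceptions. Of neighbours in this order, the test set CD44lo and naive apart in 11 genes, Treg and CD44lo in 34, and CD44hi and Treg in none. Ttk and Anln were not well above background in CD44lo or naive cells, so their order between these groups lies at the floor. Anln differed there by 0.09 ± 0.51. In the 42 genes called in CD44hi against naive, the difference of Treg from naive was a median 80.2% of that of CD44hi, on the log2 scale, and that of CD44lo 27.6%. These shares divide differences that contain the same naive arrays. They were computed in the main fit only and include genes not well above background on the naive arrays. With normexp background correction, the medians of the 44 over naive were 0.52 in CD44lo, 2.61 in Treg and 3.35 in CD44hi. In the main fit they were 1.42, 3.83 and 4.64, so the shares depend on how background is treated. Melk had the highest share in Treg, at 97.0%.

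The 2 arrays of a group also differed in these genes together. Array 2 was above array 1 in 43 of 44 genes in Treg, 43 in CD44hi, 41 in CD44lo and 37 in naive, against 38.9%, 60.2%, 50.8% and 68.5% of all tested genes. The median of array 2 minus array 1 was 0.81 in Treg, 0.49 in CD44hi, 0.54 in CD44lo and 0.46 in naive. Array 2 lay on slide 2 for Treg and CD44hi and on slide 1 for CD44lo and naive. Beside the median of 0.81 between the Treg arrays, that between Treg and CD44hi was -0.97.

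**Figure D5:**
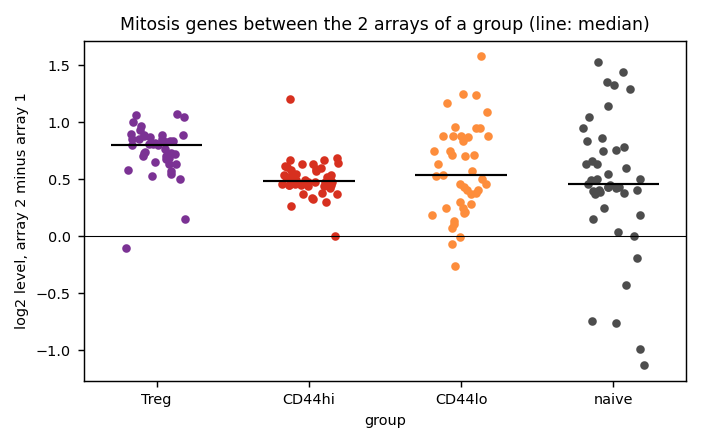
Log2 level on array 2 minus array 1 for each of the 44 mitosis genes (points) in the 4 groups, with the median as a line. Medians lie between 0.46 and 0.81, and naive and CD44lo are spread more widely than Treg and CD44hi.

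Other probes were compared in sign. In 23 of the genes there were 28 more probes. Among all 28, the sign of the brightest probe recurred in 24 (Treg minus naive), 27 (CD44hi minus naive) and 17 (CD44lo minus naive). Among those well above background it recurred in 20 of 20, 23 of 23 and 14 of 14, in the same order. A probe could enter the latter counts through its brighter group alone. For a gene that rises, that choice favours the same sign, so these counts are a weak check. All 44 genes were well above background on the Treg and CD44hi arrays, 41 and 42 of them on the CD44lo arrays and 34 and 35 on the naive arrays, and 34 were so on all 8.

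Genes of the same machinery outside the set were described from lists of other names. Of 35 further kinetochore and centromere genes, 18 rose in Treg and 21 in CD44hi against naive and none fell, with median differences of 1.28 in Treg and 1.48 in CD44hi. Ska1, which couples kinetochores to shrinking microtubules, was at least 36.7-fold higher in Treg and at least 70.5-fold higher in CD44hi. Of 26 further spindle, motor and cytokinesis genes, 17 rose and 1 fell in Treg and 20 rose and 1 fell in CD44hi, among them the kinesin Kif18b (at least 13.5-fold higher in Treg, at least 28.7-fold in CD44hi). In CD44lo against naive 2 of the 26 rose, the furrow kinase Cit by 1.63 ± 0.33 and Ckap2l, at least 2.56-fold. Of all tested genes, 4.53% were called higher there. None of the 35 kinetochore and centromere genes was called in CD44lo against naive, nor any of the condensin, cohesin, APC/C and entry genes described next. Condensin and cohesin genes were split, with 8 higher and 2 lower of 19 in Treg and 7 higher and 3 lower in CD44hi. Ncapg, a condensin subunit, differed by 4.57 ± 0.54 in Treg and 5.53 ± 0.54 in CD44hi. Of 24 APC/C core and mitotic entry genes, 5 rose and 2 fell in Treg and 9 rose in CD44hi, with medians of 0.04 in Treg and -0.01 in CD44hi. Cdc25c, the phosphatase that activates Cdk1, was at least 4.98-fold higher in Treg and at least 9.62-fold in CD44hi. The Cdk1 inhibitor Wee1 also rose, at least 2.42-fold in Treg and at least 3.72-fold in CD44hi.

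Among 23 regulators of G2 and M phase transcription, 8 rose in Treg against naive, and 8 rose and 1 fell in CD44hi against naive. Foxm1, the forkhead factor that drives late cell cycle genes, stood at -1.85 and -1.06 in Treg, -0.93 and -0.43 in CD44hi, -3.69 and -3.26 in CD44lo and -3.93 and -4.19 in naive. Its difference was 2.60 ± 0.32 in Treg and 3.38 ± 0.32 in CD44hi. E2f7 and E2f8, repressors within the E2F family, were also high: E2f7 was at least 14.4-fold higher in Treg and at least 22.3-fold in CD44hi, and E2f8 at least 12.9-fold in Treg and at least 25-fold in CD44hi. They were the 2 of this list called in CD44lo against naive, E2f7 with a bound of 1.24-fold and E2f8 of 1.3-fold. The G1 genes went both ways, with 6 higher and 3 lower of 19 in Treg and 6 higher and 4 lower in CD44hi against naive. Those that rose most included the inhibitors Cdkn2b (at least 3.11-fold in Treg and at least 14.7-fold in CD44hi) and Cdkn1a, p21 (at least 3.14-fold in Treg and at least 5.97-fold in CD44hi), and cyclin E2, Ccne2 (at least 8.88-fold in Treg and at least 13.5-fold in CD44hi). Cdkn1a and Cdkn2b also rose in CD44lo, and Ccnd1, cyclin D1, fell there by 1.63 ± 0.29 on the log2 scale.

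Between Treg and CD44hi, 6 genes of these lists were called, where 8.19% of all tested genes were called in either direction. They were 1 of 19 condensin and cohesin genes, 1 of 26 spindle, motor and cytokinesis genes and 2 of 24 APC/C and entry genes. Of 19 G1 genes, 1 was higher and 1 lower, and 0 were called among 35 kinetochore genes and 23 transcription regulators. Cdc25b, a phosphatase that activates Cdk1, was lower in Treg by -1.63 ± 0.16 (adjusted p = 0.0025), Haspin, a histone kinase of mitosis, by -0.72 ± 0.14 and Depdc1b by -1.51 ± 0.26. Cdkn2b was lower by -2.24 ± 0.24. Higher in Treg were Cdkn1c, the inhibitor p57, by 1.60 ± 0.16, and Smc4, a condensin subunit, by 1.07 ± 0.16.

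Markers of plasma cells, and some of B cells, were also called higher in Treg and CD44hi against naive. Myeloid markers and CD8 and NK cell markers went both ways. All 6 tested of 7 markers of plasma and germinal centre B cells were called higher in Treg and in CD44hi against naive, and 1 in CD44lo. Their mean level on an array ranged from -3.01 to -2.46 in Treg, -2.03 to -2.00 in CD44hi, -4.20 to -4.17 in CD44lo and -4.90 to -4.41 in naive, with Mybl1 at background on every array. Jchain, the joining chain of secreted antibodies, stood at 2.72 and 1.35 in Treg, 3.13 and 1.65 in CD44hi, -2.35 and -2.51 in CD44lo and -3.18 and -2.59 in naive. Of 6 tested of 8 B cell markers, 3 rose in Treg, 4 in CD44hi and 2 in CD44lo. Their mean level ranged from -5.09 to -4.71 in Treg, -4.29 to -3.72 in CD44hi, -5.27 to -4.80 in CD44lo and -6.41 to -6.12 in naive. Cd22, an inhibitory coreceptor of B cells, was at least 28.8-fold higher in Treg, at least 153-fold in CD44hi and at least 56-fold in CD44lo than in naive. Cd79b, a chain of the B cell receptor complex, differed from naive by 4.40 ± 0.33 in Treg, 2.78 ± 0.33 in CD44hi and 2.40 ± 0.33 in CD44lo. Ms4a1 was called in Treg (at least 3.69-fold) and CD44hi (at least 3.36-fold), and Pax5, the B lineage factor, in CD44hi (at least 1.69-fold). Ebf1 was at background throughout, and Cd79a, the partner of Cd79b, was not called against naive. Of 8 tested myeloid markers, 1 was called higher and 2 lower in Treg and 2 higher and 1 lower in CD44hi, and of 5 tested CD8 and NK cell markers, 1 higher and 3 lower in Treg and 2 higher and 2 lower in CD44hi. Lyz2 (lysozyme) differed from naive by 1.90 ± 0.38 in Treg and 2.67 ± 0.38 in CD44hi, and Itgax (CD11c) by -3.03 ± 0.20 in Treg and -1.8 ± 0.20 in CD44hi. Csf1r was called lower in Treg (-1.03 ± 0.27) and Fcgr1 higher in CD44hi (at least 1.19-fold). The NK cell receptor gene Klrb1c differed by 2.01 ± 0.23 in Treg and 4.32 ± 0.23 in CD44hi, Klrd1 by -5.60 ± 0.30 in Treg and -2.49 ± 0.30 in CD44hi, Cd8b1 by -0.99 ± 0.22 in Treg and -1.67 ± 0.22 in CD44hi, and Eomes by -0.68 ± 0.17 in Treg and 1.02 ± 0.17 in CD44hi. Of 5 tested erythroid markers, Epor was called higher in both. Of the T cell markers, only Cd247 was called against naive, lower in Treg by -0.63 ± 0.15. The part of other cells in the levels of the mitosis genes was not tested.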

How the data were processed

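The 8 single-colour Agilent arrays were analysed from their scanner files. The deposited spot signals are intensities that Feature Extraction 9.5.1.1 (Agilent) wrote, per the file headers, with background subtracted within each array and no normalization between arrays. Deposited flags per spot for background, saturation and outliers carry the unit other. The authors' deposited value table, on a log2 scale, served as an alternative. Its columns had medians of 6.86 to 6.88, and its centring and any background step are unstated. The submitters' processing notes name limma. Arrays held 45018 spots, 1639 of them controls. Outlier spots were dropped unless a probe had no other, and spots of a probe were averaged. Precision is limited by the number of arrays.

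Each array was scaled by subtracting the 75th percentile of its log2 processed signal, and all 8 were fitted together with limma 3.58.1 in R 4.3.3 (lmFit and eBayes, with 4 residual and 2.62 prior degrees of freedom and no block). A gene, represented by its brightest probe, was tested if that probe passed the background flag on both arrays of any group. It was called if its Benjamini-Hochberg adjusted p, over all 17996, was under 0.05. Values after ± are standard errors. Tests were 2-sided, and the code was tested on simulated data. The labels do not name separate animals, so a p-value reflects the spread between these samples only, and that spread may be technical. With 2 arrays against 2, exact permutation cannot reach a p below 0.333. Alternatives changed background correction, normalization, centring, filter, probe choice, blocks and arrays.

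The members and lists were chosen with earlier results of these data known. All 44 members are named. Array values are given for Mki67, Top2a, Cdk1, Ccnb1, Birc5 and, in each role, the genes with the largest and smallest difference in CD44hi minus naive. Of other lists, up to 3 called genes with the largest fitted difference are named, or those called where they were fewer than 5. Cd44 and Foxp3 were read as a check of the labels, and Cd79a as a check of the sort.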

Additional observations from a re-analysis of the deposited data

How the results depend on the processing

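CD44lo against naive had 11 of the 44 genes called. Shares of all tested genes called in either direction are given in brackets for the alternatives. It had 1 with normexp background correction (3.66%), 1 with the authors' value table (5.74%) and 1 with no filter (2.19%). There were 3 with quantile normalization (5.05%), 4 with the slide as a block (4.4%) and 5 with all probes of a gene averaged (4.67%). A filter on all 8 arrays, which leaves 34 of the genes, gave 6 (4.06%). Leaving out 1 array gave 0 to 14. The 14, without naive array 1, were 12 higher and 2 lower, in a fit that called 40.0% of all tested genes and that also called 1 member lower in Treg and 1 in CD44hi against naive. Treg against CD44lo (34 called) fell to 11 with no filter, and ranged from 1 to 35 without 1 array. Treg against CD44hi (0 called) had 5 genes lower with normexp, 4 with the authors' table, and 0 to 1 without 1 array. Of all tested genes, 1.38% were called in Treg against CD44lo with no filter. In Treg against CD44hi, 8.48% were called with normexp and 11.8% with the authors' table. The cause of the changes in count was not tested. Where an array was left out, the lone array of its group was taken to vary like the other groups. Counts for Treg against naive, CD44hi against naive and CD44hi against CD44lo stayed within 1.5 times of 39, 42 and 42 under all alternatives run, but their medians moved: with normexp to 2.61 for Treg minus naive and 3.35 for CD44hi minus naive, and with the authors' table to 2.90 and 3.54, against 3.83 and 4.64. The calls of Aurka and Cdc20 in Treg against naive were lost without Treg array 2, and those of Cenpa and Ndc80 in CD44hi against naive without CD44hi array 2. No called member changed sign under the alternatives run.

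The labels do not say that the numbers 1 and 2 pair the arrays. Deviations from the group means correlated between arrays of the same number by 0.06 to 0.33 over the group pairs. With that number as a block, 25 genes were called in CD44lo against naive (24 higher, 1 lower) and 27 in Treg against CD44hi, all lower. Of all tested genes, 6.65% and 10.6% were called there, in either direction. The other 4 counts stayed within 1.5 times. Centring on the median moved the median of all genes to -0.42 in CD44hi minus naive, against -0.15, and that of the mitosis genes to 4.37. Signal near background limits the 9 genes that were not well above it on the naive arrays, whose folds over naive are bounds.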
